A study of Homo sapiens with 4 samples.

Results

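The minichromosome maintenance (MCM) family was examined in PC9 cells with and without knockdown of TPX2, a spindle assembly factor and activator of Aurora kinase A. The family was taken as the 10 genes of the expression table with the symbols MCM2 to MCM10 and MCMBP, out of 18134 genes listed, and all 10 passed the filter on low counts that left 14048 genes for testing. The family was selected on measured values of this same contrast, because earlier results had shown higher MCM2 to MCM7 counts and TPM in shTPX2 than in shNC libraries. The differences between groups given below for these 10 genes are therefore a description, and no test is read from them.

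MCM2, MCM3, MCM4, MCM5, MCM6 and MCM7 are related ATPases that form a ring, the motor of the replicative DNA helicase. The ring is loaded onto origins in G1 phase by ORC, CDC6 and CDT1, and becomes an active helicase at the start of S phase when CDC45 and the GINS complex bind it. The genes are known targets of E2F transcription factors, and their mRNA usually peaks as cells pass from G1 into S phase. MCM8 and MCM9 form a separate complex that acts in homologous recombination. MCM10 shares the name but not the ATPase fold and helps to activate the helicase, and MCMBP binds MCM subunits outside the loaded ring and is known to help their assembly and stability.

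PC9 is an established lung adenocarcinoma line, grown here in DMEM with 10% fetal bovine serum. The shNC cells carried a non-targeting hairpin and the shTPX2 cells a TPX2 hairpin, in each case delivered by lentivirus and followed by antibiotic selection of a stable population, so every cell of both groups went through infection and selection. Each group had 2 libraries of poly(A) RNA, 4 in all, labelled as a single batch. A single TPX2 hairpin was used, so its effect on TPX2 and any other effect of its sequence cannot be told apart. The sources do not say whether the 2 libraries of a group came from separate cultures, so the spread between them may be technical.

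Expected-count totals ran from 20906441 to 21972583 per library. TPX2 (NCBI gene 22974) stood at 55.01 and 111.85 TPM in shNC 1 and shNC 2 and at 43.4 and 43.8 TPM in the shTPX2 libraries, where TPM is a level corrected for transcript length and scaled to the same total in each library. The log2 fold change of TPX2, shTPX2 over shNC, was -0.81 ± 0.32 (SE, n = 2 per group), and it was -0.24 without shNC 2. The control libraries thus differed from each other in the targeted gene more than shNC 1 differed from the shTPX2 libraries. Epithelial markers were abundant, with KRT8 between 8228 and 11388 TPM and EPCAM between 201 and 293 TPM. The lung lineage markers NKX2-1, NAPSA, SFTPB and SFTPC did not exceed 1.67 TPM in any library. The leukocyte markers PTPRC and CD3E and the fibroblast markers COL1A2, DCN and LUM stayed at or below 0.69 TPM. The listed leukocyte markers CD68 and CD14, however, stood between 125.6 and 220.4 TPM and between 6.4 and 27.3 TPM. COL1A1, PECAM1 and CDH5 were each above 4 TPM in every library. CDH5 (VE-cadherin) stood at 14.4 and 18.1 TPM in the control libraries against 26.7 and 30.5 TPM in the knockdown libraries, while the endothelial marker VWF did not exceed 0.17 TPM. The 3 endothelial markers summed to 19.9 and 32.5 TPM in the control libraries and to 31.1 and 36.5 TPM in the knockdown libraries, and the part of any other cell type in the MCM differences was not tested.

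The first question was whether the 6 helicase subunits differed together. The summed TPM of MCM2 to MCM7 was lower in both shNC libraries than in both shTPX2 libraries, with 296 and 333 TPM in shNC 1 and 2 against 547 and 473 TPM in shTPX2 1 and 2. The means were 314 ± 26.0 and 510 ± 52.1 TPM (SD, n = 2), a ratio of 1.62. Each of the 6 subunits was higher in both shTPX2 libraries than in both shNC libraries. Their log2 fold changes in edgeR lay between 0.70 and 1.03 with SEs of 0.16 to 0.21 and a median of 0.81, beside a median of -0.01 over all 14048 genes. The summed TPM of MCM8, MCM9, MCM10 and MCMBP was 55.2 and 58.5 in shNC and 67.6 and 59.5 in shTPX2, with means of 56.9 ± 2.35 and 63.5 ± 5.77 TPM and a ratio of 1.12. The median log2 fold change of these 4 genes was 0.23. Bulk RNA cannot tell a larger share of cells that transcribe the MCM genes from more MCM mRNA per cell.

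**Figure D1:**
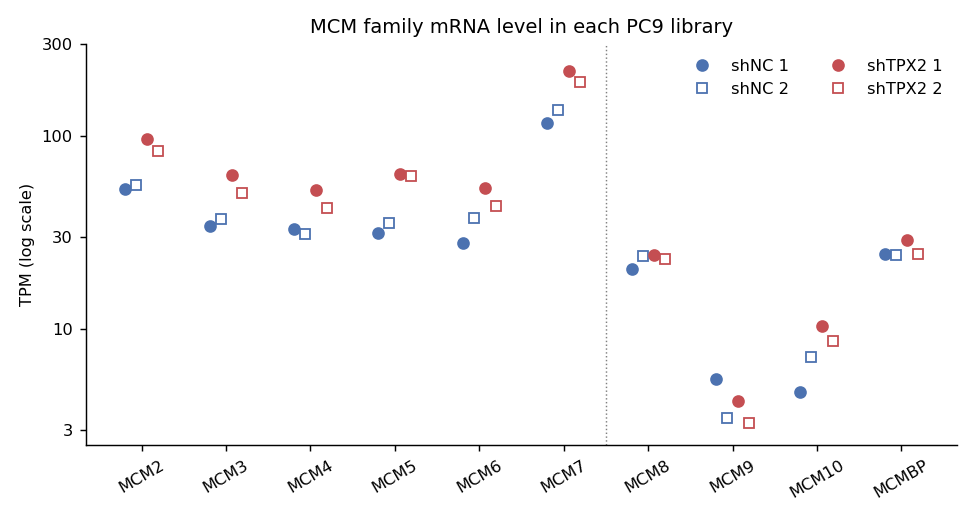
TPM on a log axis of the 10 MCM genes in each library, with shNC in blue, shTPX2 in red, library 1 as filled circles and library 2 as open squares. Left of the dotted line both red points of each helicase subunit lie above both blue points, with MCM7 reaching 218.2 TPM, whereas right of it MCM8, MCM9 and MCMBP overlap between the groups.

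MCM2 (NCBI gene 4171), the subunit that also carries histones H3 and H4 at the fork, stood at 52.8 and 55.9 TPM in shNC 1 and 2 against 96.1 and 83.5 TPM in shTPX2 1 and 2. The shNC libraries differed by 0.04 on the log2 CPM scale, and the gap between the groups was 27.7 TPM. Its log2 fold change was 0.85 ± 0.17 (SE).

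MCM5 (NCBI gene 4174), which with MCM2 forms the gate through which DNA enters the ring, had the highest log2 fold change of the family, 1.03 ± 0.16. Its levels were 31.5 and 35.5 TPM in the control libraries against 63.7 and 61.8 TPM in the knockdown libraries. The shTPX2 libraries lay closer together for MCM5 than for any other subunit, at 62.8 ± 1.35 TPM. The gap between the groups was 26.3 TPM.

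MCM3 (NCBI gene 4172), the neighbour of MCM5 in the ring, measured 34.3 and 37.0 TPM in the control libraries against 62.5 and 50.8 TPM in the knockdown libraries, a log2 fold change of 0.80 ± 0.18. MCM7 (NCBI gene 4176), the subunit whose ubiquitylation marks the helicase for removal at termination, measured 116.5 and 135.8 TPM in the control libraries against 218.2 and 191.3 TPM in the knockdown libraries. Its log2 fold change was 0.82 ± 0.18. For both genes shTPX2 1 was the highest library, and the lower shTPX2 library still exceeded the higher shNC library.

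MCM4 (NCBI gene 4173) and MCM6 (NCBI gene 4175), which together with MCM7 show helicase activity in vitro, had the lowest log2 fold changes of the ring, 0.70 ± 0.19 and 0.70 ± 0.21. MCM4 measured 32.9 and 30.9 TPM in the control libraries against 52.7 and 42.5 TPM in the knockdown libraries. MCM6 measured 27.7 and 37.6 TPM in the control libraries against 53.7 and 43.4 TPM in the knockdown libraries. MCM6 had the widest spread between control libraries of the 6 subunits, 0.40 on the log2 CPM scale, and the narrowest gap between groups, 5.81 TPM.

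MCM8 (NCBI gene 84515) measured 20.4 and 23.8 TPM in the control libraries against 24.0 and 23.2 TPM in the knockdown libraries, and its groups overlapped in TPM. Its log2 fold change was 0.19 ± 0.17, with 0.09 when shNC 1 was left out and 0.29 when shNC 2 was. MCM9 (NCBI gene 254394), the partner of MCM8, was the family's least abundant member in 3 libraries, at 5.49 and 3.46 TPM in the control libraries against 4.25 and 3.26 TPM in the knockdown libraries. Its log2 fold change of -0.12 ± 0.33 was the only one below 0 in the family, and it moved to 0.26 without shNC 1 and to 0.07 without shTPX2 2.

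MCM10 (NCBI gene 55388) measured 4.71 and 7.14 TPM in the control libraries against 10.4 and 8.67 TPM in the knockdown libraries. Both shTPX2 libraries were above both shNC libraries, and the log2 fold change, 0.81 ± 0.27, lay within the range of the ring subunits. MCMBP (NCBI gene 79892) measured 24.6 and 24.2 TPM in the control libraries against 28.95 and 24.37 TPM in the knockdown libraries, with a log2 fold change of 0.28 ± 0.18, which was 0.12 without shTPX2 1 and 0.44 without shTPX2 2. Its second shTPX2 library lay between the control libraries in TPM, so the groups overlapped. The family thus divided into 7 genes with separate groups, the 6 ring subunits and MCM10, and 3 genes with overlapping groups.

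That division depended on the scale. In TPM 10.7% of the 14048 genes had both shTPX2 libraries above both shNC libraries, while in CPM with TMM factors 19.4% did, and on the latter scale MCM8 and MCMBP also separated, making 9 of the 10 members. Across all genes the median log2 difference was -0.12 in TPM, -0.08 with library size as the only scaling and -0.01 with TMM. Relative to that median, the median of MCM2 to MCM7 was 0.80, 0.81 and 0.82 on these 3 scales.

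**Figure D2:**
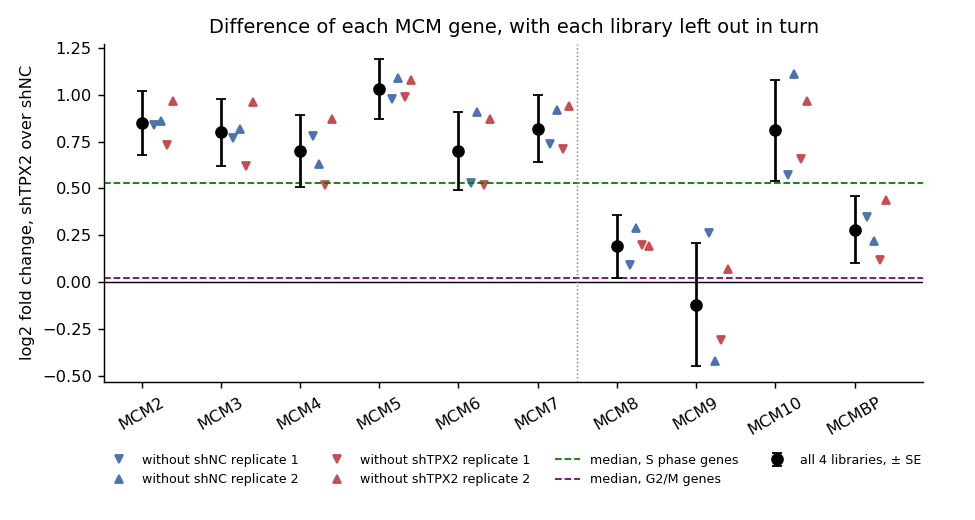
Log2 fold change, shTPX2 over shNC, of each MCM gene in edgeR (black, ± SE, 2 libraries per group) with the value when 1 library is left out (triangles) and the medians of the S phase and G2/M lists (dashed lines). Every value of MCM2 to MCM7, genes selected as higher in shTPX2, lies above 0, from 0.52 to 1.09, and only MCM9 has values on both sides of 0.

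At the thresholds the study used for its gene list (p up to 0.1 without adjustment, and 0.3 or more on the log2 scale), limma voom called 7 of the 10 members higher, MCM2 to MCM7 and MCM10, beside 6.24% of all genes tested. No member was called lower, beside 7.99% of all genes. The same 7 members had an unadjusted p under 0.05 in edgeR, beside 3.13% of genes called higher by that rule. DESeq2 placed MCM2, MCM5 and MCM7 below an adjusted p of 0.05, beside 0.24% of 13775 genes. In edgeR 0.0% of genes, 0 of 14048, passed an adjusted p of 0.05, while 440 genes were higher at an unadjusted p under 0.05. The members were picked on this contrast, so these shares are given for reference. With 2 libraries against 2, the exact permutation test of a single gene cannot give a two-sided p below 0.333.

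The proportions among the helicase subunits were similar in all libraries. MCM7 made up 39.4% and 40.8% of the summed TPM of MCM2 to MCM7 in shNC and 39.9% and 40.4% in shTPX2. MCM2 held between 16.8% and 17.9%, and MCM7 and MCM2 ranked first and second in each of the 4 libraries. MCM5 went from 10.6% and 10.7% in shNC to 11.7% and 13.1% in shTPX2, and was the subunit whose share was higher in both shTPX2 libraries. MCM4 was lowest in 3 libraries and MCM6 in shNC 1. MCM3, MCM4, MCM5 and MCM6 lay close together, and their order changed between libraries. The highest subunit exceeded the lowest 4.14-fold to 4.50-fold, and 1.81-fold to 1.96-fold once MCM7 was set aside. Against MCM8, MCM9, MCM10 and MCMBP together, the ring had 5.36 and 5.68 times their TPM in shNC and 8.09 and 7.96 times in shTPX2.

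**Figure D3:**
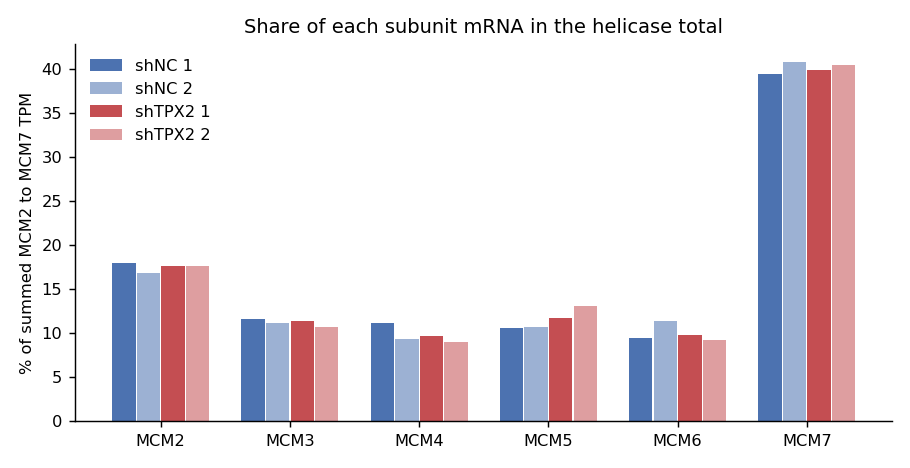
Share of each subunit in the summed TPM of MCM2 to MCM7, in percent from 0, for shNC 1 and 2 (blue) and shTPX2 1 and 2 (red), 1 bar per library. MCM7 stands near 40% in every library, from 39.4% to 40.8%, and MCM5 is the subunit with taller bars in both shTPX2 libraries.

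Libraries of the same group also differed in MCM level. In shTPX2 1 all 6 subunits were above shTPX2 2, by 0.09 to 0.35 on the log2 CPM scale with a median of 0.29, while the median over all genes was 0.01. The S phase list outside the family, which comprises 38 genes such as PCNA and TYMS, had a median of 0.28 in that same comparison, with 33 genes above 0. Between the control libraries, shNC 2 over shNC 1, the subunits ranged from -0.13 to 0.40 with a median of 0.10, while the S phase list had a median of 0.35. The summed TPM of 51 G2/M genes was 2510 and 4340 in shNC 1 and 2 and 3570 and 3380 in shTPX2 1 and 2. The controls were thus the lowest and the highest libraries for G2/M genes, and shNC 2 was also the highest for TPX2. The part of cell cycle distribution in the MCM differences was not tested.

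In GRCh38 with GENCODE v29, the ring genes lie on 6 chromosomes, so they share no cluster. MCM2 lies on the plus strand of chromosome 3 (127598223 to 127622436), MCM3 on the minus strand of chromosome 6 (52264009 to 52284881), MCM4 on the plus strand of chromosome 8 (47960185 to 47978160) and MCM5 on the plus strand of chromosome 22 (35400063 to 35425430). MCM6 lies on the minus strand of chromosome 2 (135839626 to 135876426) and MCM7 on the minus strand of chromosome 7 (100092728 to 100101940). MCM8 is on the plus strand of chromosome 20 (5950652 to 5998977), MCM9 on the minus strand of chromosome 6 (118813442 to 118935162), MCM10 on the plus strand of chromosome 10 (13161554 to 13211104) and MCMBP on the minus strand of chromosome 10 (119829404 to 119892556).

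Several members start next to a gene read in the opposite direction, which allowed each to be set beside a gene with a nearby annotated start. These starts are the outer ends of the GENCODE v29 genes. Of these members, MCM2, MCM7 and MCMBP have other RefSeq starts in the promoter windows below. For MCMBP the GENCODE start is 119892556, while its RefSeq windows on chromosome 10 are 119873532 to 119873831 and 119872794 to 119873093. MCM4 and PRKDC, the catalytic subunit of DNA-dependent protein kinase, start 2 bases apart. PRKDC measured 34.4 and 31.7 TPM in the control libraries against 33.4 and 30.5 TPM in the knockdown libraries, a log2 fold change of 0.07 ± 0.17 against 0.70 for MCM4. The MCM4 to PRKDC ratio of TPM was 0.957 and 0.975 in shNC and 1.58 and 1.40 in shTPX2. The paired genes were thus at nearly equal levels in the control cells and unequal in the shTPX2 cells.

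MCM2 starts 44 bases from TPRA1, which encodes a predicted transmembrane protein, which measured 50.2 and 63.2 TPM in the control libraries against 51.1 and 49.6 TPM in the knockdown libraries, a log2 fold change of -0.04 ± 0.18 against 0.85 for MCM2. The MCM2 to TPRA1 ratio was 1.05 and 0.884 in shNC and 1.88 and 1.68 in shTPX2. MCM7 starts 391 bases from AP4M1, a subunit of the AP-4 adaptor complex, whose log2 fold change was 0.32 ± 0.24 with overlapping groups. The MCM7 to AP4M1 ratio was 6.32 and 9.23 in shNC and 11.3 and 10.9 in shTPX2. MCM2, MCM4 and MCM7 were selected for higher values in the shTPX2 libraries, so separate ratios beside these neighbours largely restate that choice, and nothing is read from them.

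MCM8 starts 94 bases from TRMT6, part of a tRNA methyltransferase, and MCMBP 155 bases from SEC23IP, a factor of vesicle transport. TRMT6 had a log2 fold change of 0.28 ± 0.16 and SEC23IP of 0.01 ± 0.16. The MCM8 to TRMT6 ratio was 0.480 and 0.608 in shNC and 0.546 and 0.488 in shTPX2, and the MCMBP to SEC23IP ratio was 1.12 and 1.02 in shNC and 1.46 and 1.08 in shTPX2, with overlapping ratios in both pairs. The sources do not state whether strand was used in counting. Exons of a gene on the other strand cover 22.7% of the exon bases of MCM2 (an antisense RNA, AC023593.1) and 8.9% of those of MCM7 (AP4M1), and reads there could not be told apart without strand.

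The promoters of the family were then read for E2F words, since E2F is the known activator of the ring genes. RefSeq windows of GRCh38.p14, from 250 bases before to 50 after the annotated start, were at hand for 8 of the 10 members, that is MCM2, MCM3, MCM6, MCM7, MCM8, MCM9, MCM10 and MCMBP. The words TTTCCCGC, TTTGGCGC and TTTCGCGC were searched on both strands, and overlapping hits were merged into 1 site. MCM3, MCM6 and MCM7 each held 2 sites, and MCM2, MCM8 and MCMBP 1 each. No match was present in the windows of MCM9 and MCM10. Of 35116 windows, 2.74% held at least 1 site and 0.094% held 2 or more. The 4 ring genes are shown because they are the members whose groups separated and that hold a site, and MCM8 and MCMBP because their groups overlapped in TPM although a window of each holds one. Each line gives 30 bases, 5′ to 3′ on the strand of the gene, with the matched word or merged words in capitals.
MCM2: tgaaccactTTTCGCGCGAAAcctggttgt
MCM3, upstream: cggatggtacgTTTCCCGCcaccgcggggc
MCM3, at the start: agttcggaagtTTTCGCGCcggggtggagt
MCM6, distal: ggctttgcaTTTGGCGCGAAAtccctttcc
MCM6, proximal: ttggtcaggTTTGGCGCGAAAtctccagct
MCM7, distal: cagctcggaccGCGGGAAAcccggcgcctg
MCM7, at the start: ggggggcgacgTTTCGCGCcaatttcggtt
MCM8: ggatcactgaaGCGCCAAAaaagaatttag
MCMBP, second start: ggcggcggctaTTTCCCGCcattgtgcgaa

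The MCM2 line is chr3:127598404-127598433 on the plus strand and the MCM8 line chr20:5950667-5950696 on the plus strand. The minus-strand lines are chr6:52284898-52284927 and chr6:52284728-52284757 for MCM3, chr2:135876575-135876604 and chr2:135876513-135876542 for MCM6, chr7:100101566-100101595 and chr7:100101388-100101417 for MCM7, and chr10:119872834-119872863 for MCMBP. In MCM2 and at both MCM6 positions a word on 1 strand overlaps a word on the other, which makes a run of 12 bases, and the capitals of both MCM6 sites are identical. The MCM2 site lies from 3 to 14 bases past the start, and the MCM8 site from 27 to 34 bases past it. MCM10, whose log2 fold change was like that of the ring genes, held no E2F word. MCM8 and MCMBP, whose log2 fold changes were 0.19 and 0.28, held 1 each, for MCMBP only at its second start. The part of E2F in the MCM differences was not tested.

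CCAAT words, bound by NF-Y, were found at 3 places in MCM3 and in the first MCM7 window, 2 in MCM6, 2 in MCM10 and 1 each in MCM8 and MCM9, whereas 34.61% of all windows held at least 1. The word TTTGAA of the CHR element, known from G2/M genes, had 0 matches in the windows of the family, beside 15.16% of all windows. MCM2 and MCMBP held no CCAAT. These counts describe the letters of the windows and not binding.

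The other genes of helicase loading and activation were examined as lists, which overlap in a few genes and were written with earlier results known. Of 5 partners that complete the active helicase, 4 were higher at an unadjusted p under 0.05 in edgeR and 0 were lower. The list median was 0.60. GINS2 rose by 1.05 ± 0.26 (unadjusted p = 0.00639), from 14.04 and 14.41 TPM to 31.12 and 22.98 TPM. CDC45 rose by 1.00 ± 0.23 (unadjusted p = 0.00434), from 10.9 and 14.3 TPM to 24.01 and 21.95 TPM. GINS1 did not pass, with 0.20 ± 0.32 and overlapping groups. Both GINS2 and CDC45 are thus near the value of MCM5, while GINS1 is near that of MCM8. The share of all genes higher at this threshold was the 3.13% given above. The share lower at it is not given, so nothing is read from the counts of lower genes in this list and those below.

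Of 9 origin licensing genes, which load the MCM ring, 2 were higher and none lower, with a median of 0.34. ORC6, a subunit of the origin recognition complex, rose by 0.68 ± 0.26 (unadjusted p = 0.038), whereas ORC1 had 0.65 ± 0.29 and ORC2 -0.13 ± 0.19. Of 12 origin firing genes, which activate the loaded ring, 2 were higher, CCNE2 (cyclin E2) by 0.74 ± 0.26 (unadjusted p = 0.0281) and the helicase RECQL4 by 0.51 ± 0.20 (unadjusted p = 0.0424). The median was 0.24, and CDK2, at -0.08 ± 0.25, was the lowest of that list. The origin firing median was 0.05 without shNC 1, 0.08 without shTPX2 1 and 0.52 without shNC 2. With all libraries, loading and firing genes had lower medians than the ring itself.

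Among 8 partners of MCM10 at the fork, 3 were higher and none lower, with a median of 0.50 that was 0.32 without shTPX2 1. CLSPN (claspin) rose by 0.81 ± 0.24 (unadjusted p = 0.0132) and POLA2, a subunit of DNA polymerase alpha, by 0.66 ± 0.18 (unadjusted p = 0.00914). Among 10 tested repair partners of MCM8 and MCM9, none passed in either direction by edgeR, against 3 higher at the study's thresholds, and the median of 0.21 was close to the 0.19 of MCM8. NBN, a subunit of the MRE11 nuclease complex, had -0.04 ± 0.22.

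Of 9 genes for unloading the helicase, LRR1, which recruits the ligase for MCM7 ubiquitylation, rose by 0.59 ± 0.22 (unadjusted p = 0.0373), and UBXN7, a cofactor of the segregase VCP, fell by 0.45 ± 0.17 on the log2 scale (unadjusted p = 0.0394). A second gene of the list was higher, and the median was 0.15. Of 10 histone chaperones and MCM3AP, 2 were higher, TONSL by 0.70 ± 0.16 (unadjusted p = 0.00414) and CHAF1A by 0.67 ± 0.19 (unadjusted p = 0.0121). MCM3AP, which acetylates MCM3, had 0.04 ± 0.16. ASF1A, which carries histones together with MCM2, had -0.14 ± 0.21.

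Of 13 E2F, DP and retinoblastoma family genes, E2F1 rose by 0.67 ± 0.20 (unadjusted p = 0.0156), from 19.4 and 24.6 TPM to 34.96 and 28.86 TPM. E2F5, a repressor-type E2F, fell by 0.62 ± 0.23 on the log2 scale (unadjusted p = 0.0342), from 16.0 and 16.7 TPM to 9.45 and 10.1 TPM. RBL2, which encodes the pocket protein p130, had -0.37 ± 0.20. The list median was 0.10, and it was 0.36 without shTPX2 2, 0.23 without shNC 2 and 0.0 without shTPX2 1.

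Of the 38 S phase genes outside the family, 37 had a log2 fold change above 0, beside 48.9% of all 14048 genes tested. At an unadjusted p under 0.05 in edgeR, 14 were higher and none lower, and the median was 0.53. The ring median of 0.81 lay above it, with MCM4 and MCM6 0.17 above the S phase median and MCM5 0.50 above. The S phase median was 0.35 without shNC 1 and 0.76 without shNC 2, and MCM4, at 0.63 without shNC 2, was then below it. With all libraries, MCM8, MCM9 and MCMBP lay below it, by 0.35, 0.65 and 0.25. UHRF1 had the highest value of the list, 1.08 ± 0.24 (unadjusted p = 0.00384). Of 51 G2/M genes other than TPX2, 26 were above 0, beside the same 48.9% of all genes. By the edgeR test 1 was higher (TUBB4B, 0.53 ± 0.21, unadjusted p = 0.0441) and none lower. The G2/M median was 0.02, and it went to -0.37 without shNC 1 and to 0.55 without shNC 2, while the MCM2 to MCM7 median remained between 0.66 and 0.95 whichever library was left out.

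**Figure D4:**
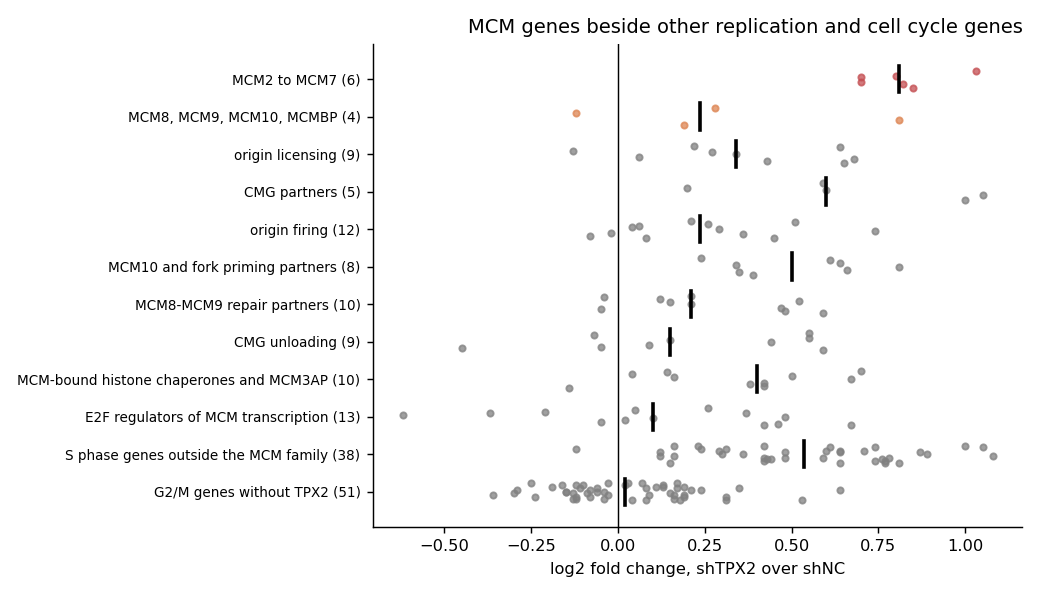
Log2 fold change, shTPX2 over shNC, of every tested gene (points) of the MCM groups and of the lists of related genes, with the number of genes in brackets and the median as a black bar. The ring subunits sit between 0.70 and 1.03 with a median of 0.81, the S phase genes have a median of 0.53 and the G2/M genes a median of 0.02.

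Finally, genes were ranked by how closely their log2 CPM, centred over the 4 libraries, followed the mean of MCM2 to MCM7, by Euclidean distance. The mean profile was -0.46 and -0.35 in shNC 1 and 2 and 0.54 and 0.27 in shTPX2 1 and 2. The 10 nearest genes outside the family were CLEC4E, MYBL2, PCNA, PDSS1, APOM, FGFR2, RPL27, ALOXE3, CLSPN and POLA2, at distances of 0.0521 to 0.159. MYBL2, a transcription factor of cycling cells, measured 127.0 and 137.3 TPM in the control libraries against 232.2 and 183.2 TPM in the knockdown libraries. PCNA, the sliding clamp of DNA polymerases, measured 199.2 and 233.8 TPM in the control libraries against 352.2 and 322.9 TPM in the knockdown libraries. CLEC4E and FGFR2 were below 1 TPM in all libraries, and ribosomal protein genes such as RPL27 have pseudogenes that could share their reads, so these 3 profiles are less certain. Over only 4 libraries many genes come close by their group difference alone.

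The 6 ring genes make up that mean profile and were selected on the same values, so their nearness to it is built in and is given as a description of how they vary around it. MCM7, MCM2 and MCM3 lay nearest, at 0.0597, 0.0663 and 0.0679. MCM4, MCM6 and MCM5 followed at 0.220, 0.233 and 0.252. Of the members outside the mean, MCM10 lay at 0.313, MCMBP at 0.568, MCM8 at 0.656 and MCM9 at 1.06, with 9102 non-member genes nearer to the ring than MCM9.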

How the data were processed

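Per their methods, the authors filtered reads by SOAPnuke, used HISAT2/Bowtie2 for alignment, and obtained gene abundance from RSEM or StringTie. The submitters' processing notes name HISAT2, featureCounts, DESeq2 and GRCh38. Versions, annotation and strand setting are not given in the sources used here. The deposited expected counts are estimated reads per gene without depth normalization, and 42.2% to 44.6% of genes per library had values that were not whole. The deposited TPM values are scaled to the same total per library and were used for levels. The deposited FPKM values, which the authors divided by transcript length and library reads, entered no result. Mean columns of the table are treated in the closing section.

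Expected counts were rounded to 0 decimals, filtered with filterByExpr and tested in edgeR 4.0.16 (quasi-likelihood, TMM factors 0.959 to 1.05, Benjamini-Hochberg adjustment) under R 4.3.3, with limma 3.58.1 voom at the study's thresholds and DESeq2 1.42.0 beside it. The common dispersion was 0.0485, and counting error was 1.8% to 8.1% for the members. P-values set the difference between groups against the spread between these libraries, which may be technical. With 2 libraries per group, that spread was estimated by sharing information across genes. Scripts were tested on simulated data. The members and lists were chosen with earlier results of these data known. Named genes were the members, TPX2, the extremes of each list (2 highest, 2 lowest), genes starting within 1000 bases on the other strand and the 10 nearest profiles, and 1 gene under this rule is not reported here. The alternatives were other scalings and filters, DESeq2, a log2(TPM + 1) difference with a pseudocount of 1, a replicate block, adjusted p-values and leaving out each library. MCM protein sequences were not used here.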

Additional observations from a re-analysis of the deposited data

Results flagged for a closer look

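The deposited table also holds mean columns for the nc and shTPX2 groups that no comparison above used. They equalled the mean of the 2 listed libraries, up to rounding, for 5.24% and 4.97% of the 18134 genes. As they differed from that mean for most genes, they were taken as pooling libraries other than, or beyond, the listed ones. Multiplied by 3 for nc and by 4 for shTPX2, they gave values with 2 decimals for 100% of genes (tolerance 0.01 of the second decimal). No other multiplier is reported, so this does not give the number of libraries pooled. For 8 of the 10 members the authors' mean TPM of the nc column was above both listed shNC libraries, with no SD or n to set beside it. It was 81.0 for MCM2, 62.4 for MCM3, 52.2 for MCM4, 73.5 for MCM5, 44.0 for MCM6 and 250.3 for MCM7. It was 10.5 for MCM10 and 39.0 for MCMBP. The authors' mean of the shTPX2 column was higher than that of nc for these 8 genes, at 103.7, 81.2, 62.5, 99.9, 57.3 and 326.1 TPM for MCM2 to MCM7, 13.4 for MCM10 and 47.0 for MCMBP. In proportion to nc, the column difference was smaller than that between the listed libraries for MCM2 to MCM7 and MCM10, and larger for MCMBP. For MCM5 the listed means were 33.5 TPM in shNC and 62.8 TPM in shTPX2, a ratio of 1.87. For MCM5, MCM7, MCM10 and MCMBP the authors' nc mean also exceeded every listed library of either group, whose highest values were 63.7, 218.2, 10.4 and 28.95 TPM. These differences between columns were not tested.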

How the results depend on the processing

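The median log2 fold change of MCM2 to MCM7 (0.81) stayed between 0.66 and 0.95, and that of MCM8, MCM9, MCM10 and MCMBP (0.23) between 0.11 and 0.31, under 12 alternatives each. The difference between these medians (0.58) was 0.47 to 0.64 with a library left out, and 0.62 without MCM10, an alternative chosen after seeing the data. The ring genes were selected as higher in shTPX2, so a ring median above 0 with a library left out was built in. Calls at the study's thresholds were checked under a partly different set of alternatives. All 6 ring genes kept their call with edgeR, DESeq2, library size only, quantile normalization in voom, the other filters and the replicate block. With adjusted p-values 0 did. Of the other 4, MCM10 alone was called, 0 to 1 with a library left out (0 without shTPX2 1) and 0 with adjusted p-values. Over all genes, 876 were higher and 1122 lower. With library size only, 578 were higher. With a library left out the range was 495 to 1546 higher and 523 to 1969 lower, the lowest without shTPX2 2 and the highest without shNC 1. With adjusted p-values 0 were higher and 1 lower. The cause of these shifts was not tested. A left-out library leaves 1 library in its group, assumed to vary like the others.

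The library titles share replicate numbers without stating a pairing. Deviations of same-numbered libraries correlated at 0.18 over 14048 genes, and with only 2 pairs this cannot settle whether they were paired. With the replicate number as a block, the ring median was 0.80 and the difference 0.57, with 1084 genes higher and 1363 lower.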
